A study of Mus musculus with 4 samples.

Results

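The cells described here were 81 Fcgr4-positive leukocytes found in a single-cell library of embryonic mouse pancreas that had been sorted and labelled as epithelium. They were picked from 941 control cell barcodes (1558 in the series) by measured values. A cell needed at least 500 detected genes, at most 10% of its unique molecular identifiers (UMIs, 1 per captured transcript) from mt- genes, at least 3 UMIs of Fcgr4, under 4 of Lyve1, under 3 of Ly6c2 and under 1500 CPM of Cpa1 (its UMIs scaled to the same total in every cell). The control embryos, labelled WT, carried OGTflox/flox without Cre, and were taken on embryonic day 15.5 and sorted on E-cadherin according to the design text, although the extraction protocol names GFP for all samples. The knockout embryos were PdxCre;OGTflox/flox;CAG GFP at the same age, with Cre under a Pdx promoter that is active in pancreatic epithelium, and their GFP-positive cells were sorted. The labels describe the paired samples of each genotype as technical sequencing repeats, so each genotype counted as 1 library, cells were not replicates and nothing was tested. How many embryos were pooled is not given in the sources used here.

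Fcgr4 encodes the mouse Fc gamma receptor IV, an activating receptor for IgG that pairs with the signalling chain encoded by Fcer1g. It is known for its presence on Ly6C-low, non-classical monocytes and on some macrophages. Monocytes enter tissues with the help of the chemokine receptor CCR2 and can mature there into macrophages, which make the complement component C1q, while resident macrophages of fetal tissues often carry LYVE1.

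The Fcgr4 gene lies at chr1:171018920-171029761 on the plus strand of GRCm38, close to Fcgr3 at chr1:171051174-171064935 on the minus strand. Promoters of Fcgr4, Lair1, Isg15, H2-Aa and H2-Eb1 are shown as examples that hold a motif match, and promoters without a match are not printed. The first pair belongs to the marker genes of these cells, Isg15 to the interferon-response genes and the last pair to the class II genes described further down. The 150 bases before each RefSeq start site (GRCm38.p6) are given 5′ to 3′ on the gene's strand, with matches to short motifs in capitals. Fcgr4 lies on the plus strand (chr1:171018776-171018925) and holds 1 ISRE match, 73 bases before the start, and 1 PU.1 match on the opposite strand, 23 bases before it. Lair1 lies on the minus strand (chr7:4063205-4063354) and has 1 PU.1 match on the opposite strand. Isg15 lies on the minus strand (chr4:156200819-156200968) and has 3 ISRE matches that overlap. H2-Aa on the minus strand (chr17:34287824-34287973) and H2-Eb1 on the plus strand (chr17:34305717-34305866) have 1 Y box match each.
Fcgr4: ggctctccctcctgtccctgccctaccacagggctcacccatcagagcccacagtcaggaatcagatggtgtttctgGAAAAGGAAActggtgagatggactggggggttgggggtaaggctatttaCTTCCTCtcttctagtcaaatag
Lair1: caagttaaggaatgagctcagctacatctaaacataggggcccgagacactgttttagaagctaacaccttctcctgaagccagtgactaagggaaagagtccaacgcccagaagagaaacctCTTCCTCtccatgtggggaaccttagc
Isg15: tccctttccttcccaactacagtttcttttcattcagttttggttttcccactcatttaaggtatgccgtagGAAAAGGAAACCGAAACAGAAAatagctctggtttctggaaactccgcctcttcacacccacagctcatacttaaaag
H2-Aa: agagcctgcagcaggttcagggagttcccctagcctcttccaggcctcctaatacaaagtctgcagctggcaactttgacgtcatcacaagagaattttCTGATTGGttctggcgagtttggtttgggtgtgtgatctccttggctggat
H2-Eb1: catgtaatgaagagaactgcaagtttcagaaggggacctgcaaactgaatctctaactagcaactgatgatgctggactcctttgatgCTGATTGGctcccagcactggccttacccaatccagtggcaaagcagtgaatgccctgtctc

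The motifs were searched on both strands of 32851 promoters of 300 bases. PU.1, the product of Spi1 and a central myeloid transcription factor, was represented by GAGGAAG, found in 13.6% of all promoters. The interferon-stimulated response element (ISRE) was written as GAAA, any 2 bases and GAAA, and found in 3.44%. The Y box of class II promoters was written CTGATTGG and found in 4.10%. Of the 5 given marker genes, 4 had a promoter in the table, and 3 of them (Fcgr4, Lair1, Bcl2a1b) held a PU.1 match. The promoters of Ccr2 and of Plac8 held no PU.1 match, and those of Irf7 and Ms4a4c held no ISRE match. An ISRE match was present in 10 of 15 interferon-response genes with a promoter, and a Y box in 2 of 4 class II genes. Among genes at least 2-fold higher in Fcgr4-positive cells than in Lyve1-positive cells, 65 of 212 with a promoter held a PU.1 match and 34 an ISRE match. Among those at least 2-fold lower, 40 of 199 and 7 of 199 did. These counts are of genes with a match in any of their promoters. The percentages above are of single promoters, which belonged to 27025 genes, so the shares are not alike. The share over all genes was not computed. A match describes the letters only.

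The control library held 11973979 UMIs with a median of 10756 per barcode, and the knockout library held 617 barcodes with 11064540 UMIs and a median of 15367. No barcode was shared. The 81 cells were 8.76% of the 925 control cells that passed the gene and mt- filters (exact binomial 95% interval 7.01 to 10.8%, counting error only). They were set beside 198 Lyve1-positive cells (4 or more Lyve1 UMIs), 75 Ly6c2-positive cells (3 or more Ly6c2 UMIs) and 311 C1q-high cells (20 or more C1q UMIs, below the limits for Fcgr4, Lyve1 and Ly6c2). The 81 cells' median depth of 14712 UMIs (4321 to 33863) was above the 10952 of Lyve1-positive, 10189 of C1q-high and 13009 of Ly6c2-positive cells. A rule in UMIs favours deep cells, and the part of depth in the differences below was tried only by thinning and by leaving out the deepest cells. Levels are CPM of the UMIs summed over a set of cells, with exact Poisson or conditional 95% intervals that cover counting error only.

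No cell of the knockout library met the rule. With 0 of 561 kept cells, a share of up to 0.535% is allowed. Among the 30 cells of the other immune sets there, the same limit is 10%. In the knockout 5 cells had exactly 2 Fcgr4 UMIs under the other limits. Those immune sets were small, with 6 Lyve1-positive, 11 C1q-high and 13 Ly6c2-positive cells against 198, 311 and 75 in the control. Fcgr4 as a whole stood at 67.6 CPM in the control and 3.29 CPM in the knockout. Genotype, library and, by the design text, the sorting signal differ together and cannot be told apart.

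The label of epithelium went against the RNA of these cells. Every one held at least 13 UMIs of Tyrobp, a signalling adaptor of myeloid cells, all 81 had Csf1r, the receptor for macrophage colony-stimulating factor, and 72 had Ptprc, the pan-leukocyte gene. E-cadherin (Cdh1) gave 12 UMIs in 11 cells, 10.1 CPM, against 139 CPM in 45 acinar cells (Cpa1 at 1500 CPM or more). Acinar genes were present at a low level in all sets, and the 8 genes of the acinar list summed to 2483 CPM here, 2718 in Lyve1-positive, 3739 in C1q-high and 2397 in Ly6c2-positive cells. What part of this was free RNA was not tested. Cells with Y-linked UMIs and no Xist numbered 40, cells with Xist and no Y-linked UMI 12, so the library mixed embryos of both sexes. Xist and Y-linked genes are not named among the differences.

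Fcgr4, which chose the cells, reached 317 CPM against 40.7, 39.2 and 66.2 CPM in the Lyve1-positive, C1q-high and Ly6c2-positive sets and 8.98 CPM in acinar cells. Per cell it ran from 128 to 1989 CPM with a median of 293. At the limit of 3 UMIs stood 27 cells, 24 had 4, 16 had 5, and the highest had 17. The 27 cells just inside the limit had Plac8 at 1734, Ccr2 at 738 and the 3 C1q genes at 4015 CPM. The 52 cells just outside, at 2 UMIs, had 1331, 592 and 5645 CPM. These are averages over the cells on each side of the limit, and whether the cells form a continuum was not tested. Of 102 cells with at least 3 Fcgr4 UMIs, 13 were left out for Lyve1 and 8 for Ly6c2. Those cells stayed in the Lyve1-positive and Ly6c2-positive sets. Of the sets compared with, only the C1q-high set held no cell with 3 or more Fcgr4 UMIs.

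The activating receptor genes other than Fcgr4 differed by less than 2-fold from each of the other immune sets, although Fcgr1 and Fcgr3 came near that size. Fcer1g stood at 3327 CPM, 0.964 times (95% interval 0.929 to 1.00) its level in Lyve1-positive cells. Fcgr3, a low-affinity IgG receptor, stood at 972 CPM, 0.919 times Lyve1-positive and 1.90 times Ly6c2-positive cells. Fcgr1, the high-affinity receptor, was at 436 CPM, 1.92 times Lyve1-positive cells (1.70 to 2.16). The inhibitory Fcgr2b stood at 119 CPM, 1.08 times Lyve1-positive cells (0.878 to 1.33). Fcgrt, the neonatal receptor that recycles IgG, was lower at 355 against 1019.6 CPM.

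The other given markers split in reliability. Ccr2 was at 638 CPM (593 to 685) against 54.8 in Lyve1-positive, 281 in C1q-high and 771 in Ly6c2-positive cells. Per cell it ranged from 0 to 2102 CPM with a median of 670, and 76 of 81 cells had it. With every cell thinned to 5000 UMIs, 83.8% still had a Ccr2 UMI, against 19.0% of acinar cells, whose median depth before thinning was 19966. Lair1, an inhibitory receptor for collagen, was at 94.2 CPM against 20.6, 64.4 and 8.05 CPM in those sets, and its level per cell ran from 0 to 507 CPM with a median of 68.0. After thinning, 35% of Fcgr4-positive, 24.5% of C1q-high, 1.43% of Ly6c2-positive and 4.76% of acinar cells had a Lair1 UMI. Lair1 thus separated these cells from Ly6c2-positive cells in level more than from C1q-high cells.

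Ccl4 and Bcl2a1b were found in 57 and 55 of the 81 cells, but a few cells held much of their UMIs. Ccl4, an inflammatory CC chemokine, summed to 743 UMIs or 625 CPM against 70.4, 214 and 120 CPM, but 1 cell held 475 of them (63.9%). Without that cell the level was 229 CPM, and without the 5 highest cells of each set the ratio to C1q-high cells fell from 2.92 to 0.935. The median cell had 92.2 CPM against 83.2 in C1q-high cells. Bcl2a1b, an anti-apoptotic BCL2 relative, was at 236 CPM against 36.9, 152 and 82.3 CPM, with 31.4% of its UMIs in 1 cell. Its ratio to C1q-high cells was 1.55, and 1.06 without the 5 highest cells of each set. After thinning, 40% of Fcgr4-positive cells had a Bcl2a1b UMI, against 38.6% of C1q-high, 14.2% of Lyve1-positive, 14.3% of Ly6c2-positive and 9.52% of acinar cells. Bcl2a1a, Bcl2a1b and Bcl2a1d are near-identical copies, so the split of reads among them is uncertain.

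**Figure D1:**
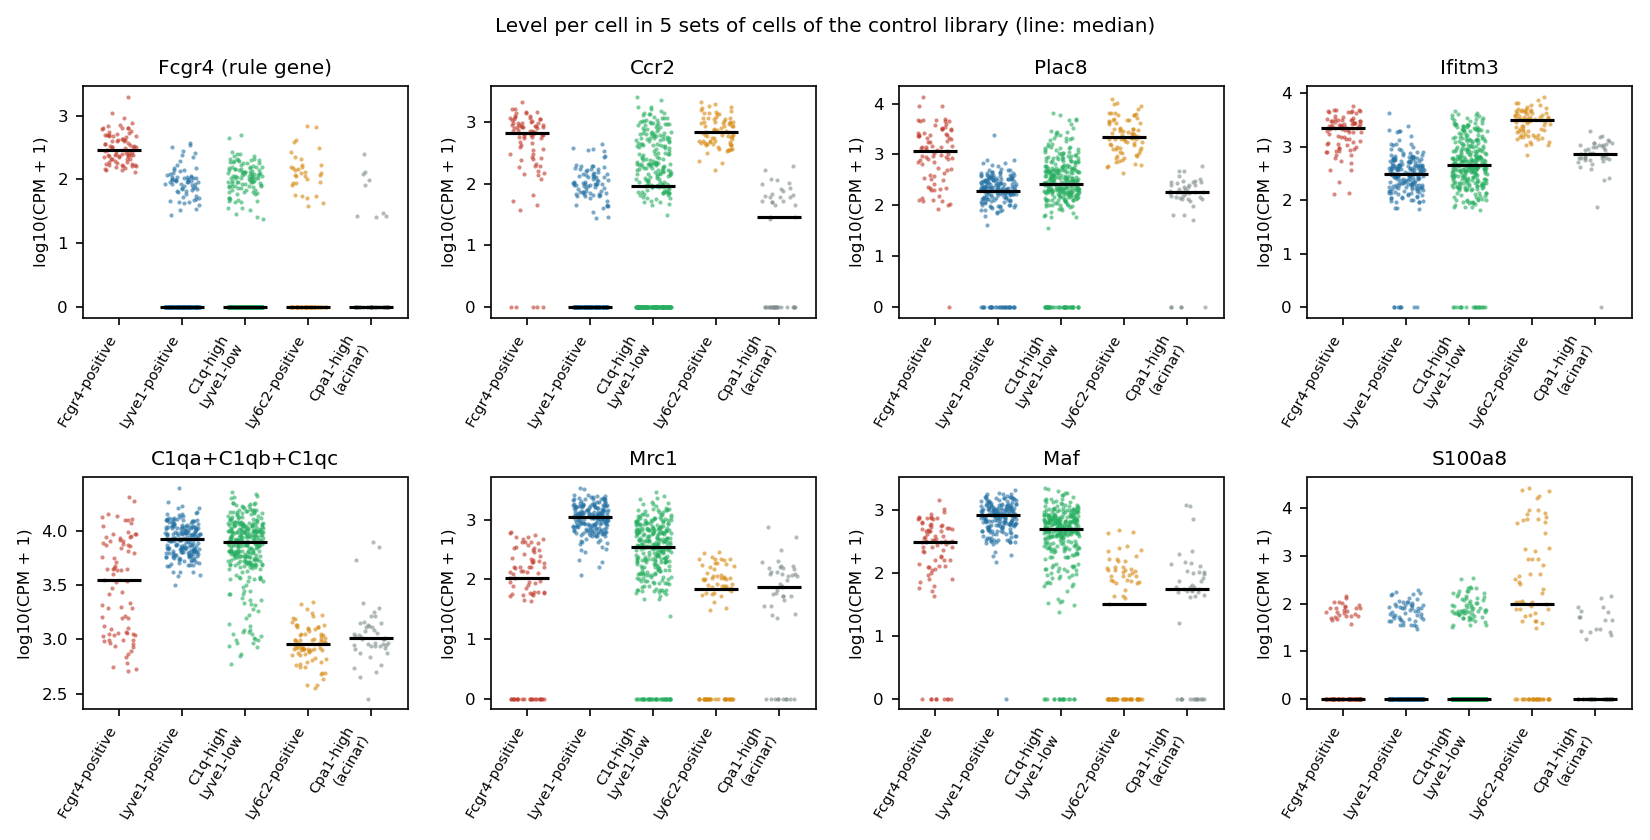
Level per cell, log10(CPM + 1), of Fcgr4 (rule gene), Ccr2, Plac8, Ifitm3, the 3 C1q genes together, Mrc1, Maf and S100a8 in 5 sets of control cells. Each point is a cell and each line a median: Fcgr4-positive cells reach the Ccr2 range of Ly6c2-positive cells (medians 670 and 676 CPM), while their C1q spans from 510 to 20388 CPM.

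Against Lyve1-positive cells, Fcgr4-positive cells were higher in part of the monocyte, interferon-response and adhesion lists, and lower in part of the tissue macrophage list. To be called, a gene had to differ at least 2-fold after 10 CPM were added to each level, and 9134 genes reached the required 20 UMIs in the compared sets together. Higher were 282 genes (3.09% of those measured) and lower 261 (2.86%), of which 212 and 239 stayed past the limit without the 5 cells highest in each gene. The choice of cells by Fcgr4, Lyve1 and Ly6c2 shapes all these differences, which are descriptions. The choice by C1q also shapes the differences from C1q-high cells.

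The largest ratios included Cd74, several genes known from monocytes, and H2-Aa, H2-Ab1 and Ccl4, whose UMIs lay mostly in few cells. Plac8, a small cysteine-rich protein of myeloid cells, was at 1718 CPM against 240, 7.16-fold higher (6.55 to 7.85), and per cell it ran from 0 to 13781 CPM with a median of 1152. Ms4a4c, a membrane gene of monocytes, was at 405 against 37.7 CPM. Cd52, a surface glycoprotein of leukocytes, was at 1878 against 290 CPM, and Napsa, an aspartic protease, at 209 against 24.4 CPM. Lyz2, the lysozyme of myeloid cells, was at 8610 against 2834 CPM (3.04-fold, 2.95 to 3.13). Of 8 classical monocyte genes measured, 3 were higher (Ccr2, Plac8, Hp) and 1 lower (F13a1, 575 against 1769.7 CPM), with a median log2 ratio of 0.88 against -0.10 for all genes.

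Non-classical monocyte genes were partly present. Of 9 measured, 5 were higher than in Lyve1-positive cells and Cd36, a scavenger receptor for lipids, was lower. Treml4, a receptor known from non-classical monocytes, was at 26.9 against 4.19 CPM in 20 of 81 cells. Adgre4 was at 79.1 against 9.90 CPM, and Nr4a1, the transcription factor that Ly6C-low monocytes need, at 48.8 against 13.3 CPM. Other genes of that list were close to absent: Ace gave 3 UMIs, Spn 1 and Eno3 5, and Cd300e gave 12 UMIs, 83.3% of them in 1 cell. Against C1q-high cells, 1 of 9 was higher (Adgre4) and 1 was lower (Cd36). Against Ly6c2-positive cells, 1 of 10 was higher (Cx3cr1, the fractalkine receptor, 451 against 131 CPM) and 2 were lower. The name of non-classical monocyte was therefore not given, origin from monocytes was not tested by these data, and the cells are called by the rule gene.

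Interferon-response genes were higher as a group. Of 19 measured, 10 were at least 2-fold higher than in Lyve1-positive cells and none lower, with a median log2 ratio of 1.28. Ifitm3, which restricts viral entry, was at 2202 CPM against 435, and every cell had it, from 130 to 5758 CPM with a median of 2265. Acinar cells had it at 861 CPM, above the 435 CPM of Lyve1-positive cells, so acinar cells give no background level for Ifitm3. What part of its level was free RNA was not tested. Irf7, a transcription factor of the interferon response, was at 211 against 33.1 CPM, and Isg15, a ubiquitin-like modifier, at 180 against 44.2 CPM. Against Ly6c2-positive cells, none of the 19 was higher and 1 was lower (Ifitm6, 135 against 345 CPM). Irf7 stood at 0.968 times its level in Ly6c2-positive cells (0.808 to 1.16).

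Of 13 inhibitory receptors, 7 were higher than in Lyve1-positive cells and none lower. Against C1q-high cells 1 of 14 was higher (Pirb), and against Ly6c2-positive cells 1 of 13 (Lair1). Pirb, a receptor for MHC class I, was at 116 against 16.8 CPM, and Clec12a, a C-type lectin receptor, at 220 against 39.6 CPM. Of 16 integrin and adhesion genes, 7 were higher, among them Itgam (CR3 chain CD11b), at 105 against 33.5 CPM, Itgal (LFA-1 chain) at 80.7 against 29.7 and Selplg (P-selectin ligand) at 175 against 43.8. Against Ly6c2-positive cells the same adhesion list had 2 higher and 2 lower, and against C1q-high cells 1 of 17 was higher (Itgb7) and none lower.

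Tissue macrophage genes were among the 261 lower genes. Of 19 tissue macrophage genes measured, 10 were lower, with a median log2 ratio of -1.09. Mrc1, the mannose receptor CD206, was at 165 against 1104 CPM, a ratio of 0.149 (0.129 to 0.173), and its median per cell was 102 CPM. Pf4, a CXC chemokine, was at 689 against 5464 CPM, and Gas6, a ligand of the receptors that clear dying cells, at 99.3 against 836 CPM. Acinar cells had Gas6 at 97.8 and Pf4 at 471 CPM, so the level of Gas6 here was that of cells that should lack it. Colec12, a scavenger receptor, was at 15.1 against 168 CPM, and 5 of 9 scavenger receptors were lower. Maf, a transcription factor of mature macrophages, was at 341 against 800 CPM. Apoe, the lipid-carrying apolipoprotein, was not among them, at 17582 against 14375 CPM, and Csf1r was at 895 against 978 CPM.

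**Figure D2:**
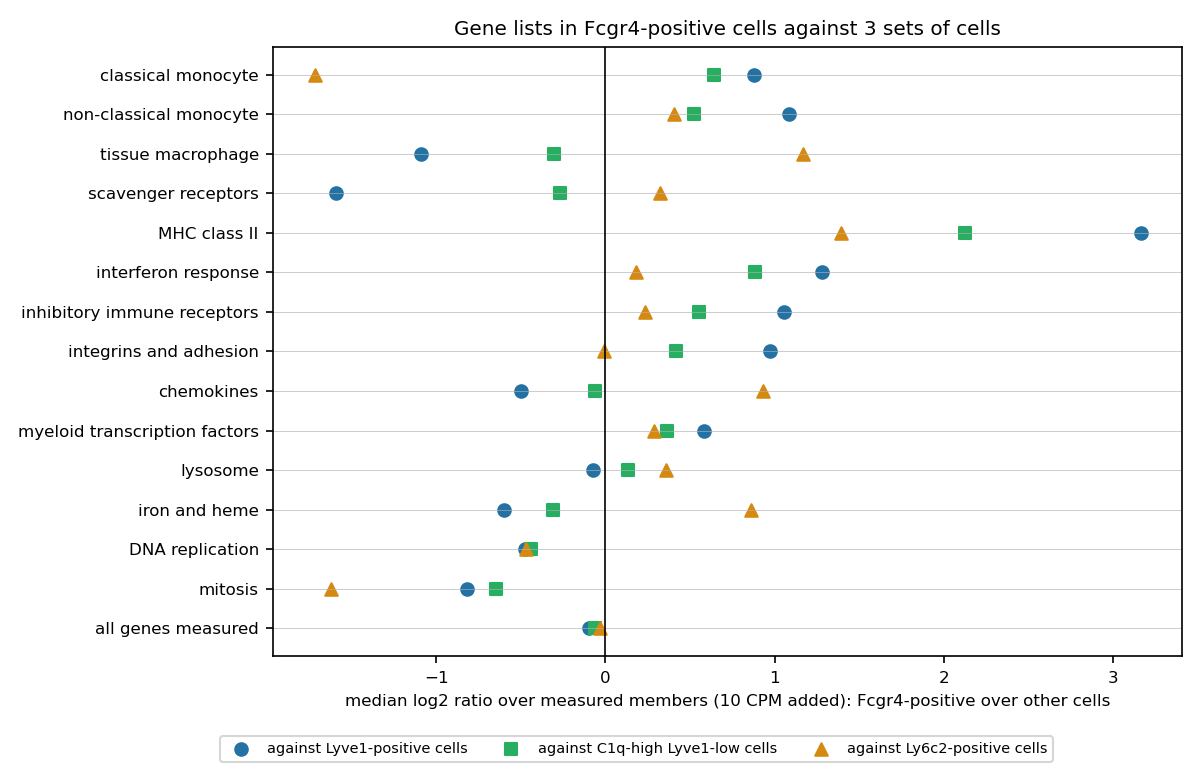
Median log2 ratio (10 CPM added) of fixed gene lists, Fcgr4-positive over Lyve1-positive (circles), C1q-high Lyve1-low (squares) and Ly6c2-positive cells (triangles). Classical monocyte genes sit at 0.88 against Lyve1-positive and at -1.72 against Ly6c2-positive cells, and tissue macrophage genes at -1.09 and 1.17. The medians of all genes sit at -0.10, -0.06 and -0.03. Of the class II genes, H2-Aa, H2-Ab1 and H2-Eb1 together have 93.8% of their UMIs in 3 cells.

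Against the 75 Ly6c2-positive cells the order turned around. Higher were 140 of 7743 genes measured (1.81%) and lower 216 (2.79%), of which 119 and 201 stayed past the limit without the 5 highest cells. Of 16 tissue macrophage genes, 11 were higher and none lower. C1qa, C1qb and C1qc, the chains of C1q, were at 1274, 2274 and 1585 CPM against 244, 435 and 300 CPM, between 5.22 and 5.29-fold higher, and acinar cells had 412, 456 and 335 CPM. These are levels over all 81 cells, and 35 of them had no more C1q than the highest Ly6c2-positive cell. Apoe was at 17582 against 5034 CPM, Maf at 341 against 75.1, and Csf1r at 895 against 403 CPM (2.22-fold, 1.99 to 2.48). Ms4a7, a membrane gene of macrophages, was at 255 against 51.9 CPM, and Adgre1, the F4/80 antigen, at 385 against 162 CPM.

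Classical monocyte and granule genes were lower than in Ly6c2-positive cells. Of 9 classical monocyte genes, 6 were lower, among them Hp, Mgst1, Vcan, Fn1 and Gsr, and none higher. S100a8, a calcium-binding alarmin, was at 26.9 CPM, near the 21.5 of acinar cells, against 1886, and 58.7% of the UMIs in Ly6c2-positive cells came from 5 cells. Hp, haptoglobin, was at 152 against 738 CPM and Lyz2 at 8610 against 20256 CPM. Ccr2 itself was only slightly lower, with a ratio of 0.827 (0.749 to 0.913), and Plac8 stood at 0.635 times the Ly6c2-positive level. Fn1, fibronectin, was at 21.9 against 147 CPM. The 12 neutrophil genes summed to 182 CPM against 2181 in Ly6c2-positive and 58.6 in Lyve1-positive cells. Ly6g, Elane, Camp and Ngp had no UMI in the 81 cells, whereas Csf3r, the G-CSF receptor, was at 70.7 CPM in 49 cells and Prtn3, a granule protease, at 67.3 CPM in 31 cells. Both were past the 2-fold limit above Lyve1-positive and C1q-high cells.

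Mitosis genes were lower than in Ly6c2-positive cells throughout the list, with 20 of 20 past the limit and a median log2 ratio of -1.62. Top2a, the topoisomerase of dividing cells, was at 61.4 against 194 CPM, and Ccnb1, cyclin B1, at 46.3 against 209 CPM. Against Lyve1-positive cells 3 of 20 were lower, with a median of -0.82. That count depended on the settings: it was 18 with Fcgr4 at 200 CPM or more, 9 without the 10% deepest cells, 7 with at least 5 Fcgr4 UMIs, 1 with at least 2, and 0 with 50 CPM added, where the count against Ly6c2-positive cells was 11. Against C1q-high cells 0 of 20 mitosis genes were past the limit in either direction, with a median of -0.64. At their own depth 42 of 81 cells (51.9%) had at least 3 UMIs of 6 mitosis genes. The share was 61.1% in Lyve1-positive, 52.7% in C1q-high and 64.0% in Ly6c2-positive cells. After thinning to 5000 UMIs, which left out 1 Fcgr4-positive, 8 Lyve1-positive, 34 C1q-high and 5 Ly6c2-positive cells, the shares were 13.8% (7.07 to 23.3%), 37.4%, 32.9% and 48.6%. Of the acinar cells 50% passed at that depth, so acinar cells give no background for these genes. The 18 DNA replication genes had 1 lower and none higher against each of the Lyve1-positive and Ly6c2-positive sets, and none past the limit against C1q-high cells. Their median log2 ratios were -0.48, -0.47 and -0.44 against those sets in that order, where all genes had -0.10, -0.03 and -0.06.

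**Figure D3:**
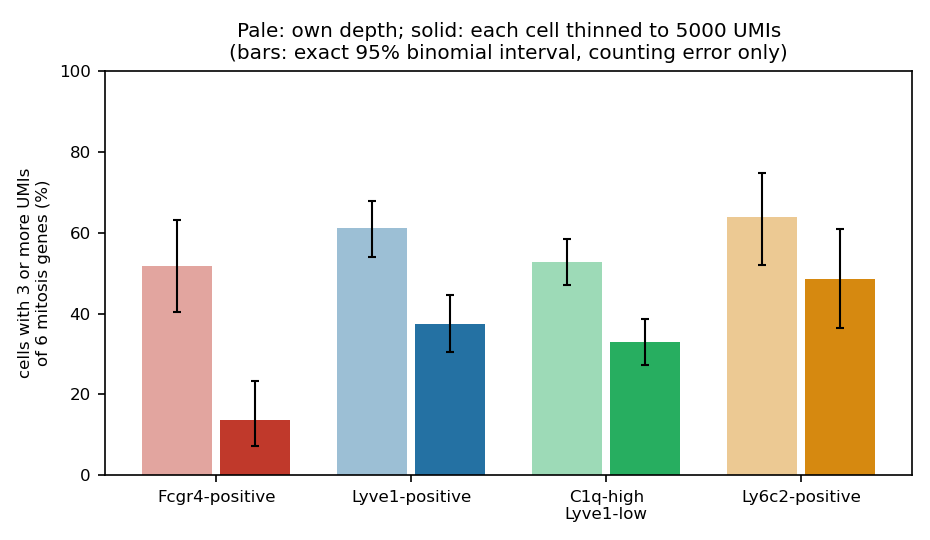
Percent of cells with at least 3 UMIs of 6 mitosis genes (Mki67, Top2a, Cdk1, Ccnb1, Ccnb2, Birc5) in 4 sets, at each cell's own depth (pale) and thinned to 5000 UMIs (solid), with exact 95% binomial intervals for counting error. After thinning, Fcgr4-positive cells stand at 13.8% and the other sets between 32.9 and 48.6%.

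C1q-high Lyve1-low cells with under 3 Fcgr4 UMIs were the most like set. Of 9732 genes measured, 57 were higher in Fcgr4-positive cells (0.586%) and 84 lower (0.863%), of which 30 and 48 stayed past the limit without the 5 highest cells. The largest ratios were those of the class II genes and Bcl2a1d, which rested on few cells. All 6 class II genes measured, 3 of 8 classical monocyte genes (Ccr2, Plac8, Hp) and none of 18 tissue macrophage genes were higher. The class II count was 0 without 4 cells high in class II genes, described below, and 3 in cells with Y-linked UMIs only. The classical monocyte count was 1 without dividing cells and 1 in cells with Y-linked UMIs only. S100a6, a calcium-binding protein, was at 410 against 129 CPM, Plac8 at 1718 against 564 (3.04-fold, 2.86 to 3.24), Ms4a4c at 405 against 136 and Lyz2 at 8610 against 4053 CPM. The C1q-high set was chosen by C1q, whereas the Fcgr4-positive cells were not. Its limit was in UMIs, so its cells reached down to 593 CPM of C1q, below the acinar median of 1022 CPM. A limit of 2000 CPM of C1q, not planned beforehand, gave 303 cells. Against these, 81 genes were higher and 58 lower, of which 53 and 43 were among the 57 and 84. In the highest-C1q group of Fcgr4-positive cells, described below, Plac8 was at 576, Ccr2 at 315, S100a6 at 79.2 and Hp at 37.3 CPM. The C1q-high set had these genes at 564, 281, 129 and 65.0 CPM. What part of the differences between the sets followed C1q was not tested. Of 19 interferon-response genes, 7 were higher and none lower. The higher count was 3 with at least 5 Fcgr4 UMIs, 4 in cells with Y-linked UMIs only and 2 with 50 CPM added. The hemoglobin genes led the lower side only through 1 C1q-high cell, which held 3782 Hbb-bs UMIs, and 1 cell with 1850 UMIs held 84.4% of their Ins2. Mrc1, at 165 against 410 CPM, and Igf1, at 55.5 against 192 CPM, were lower over many cells.

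C1q varied widely among the 81 cells. Summed over its 3 genes it ran from 510 to 20388 CPM per cell, with a median of 3500. No Ly6c2-positive cell exceeded 2229 CPM and no Lyve1-positive cell was below 3157 CPM. Of the Fcgr4-positive cells, 35 (43.2%) lay at or below the first value, 43 (53.1%) at or above the second, and 3 between them. Acinar cells had a median of 1022 CPM, so the lower group was at the level of cells that should lack C1q.

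Other genes followed C1q when the cells were ranked by it and split into 3 groups of 27, a division made after the spread was seen. Among 3519 genes with at least 30 UMIs over the outer groups, 121 were higher in the lowest-C1q group (3.44%) and 118 in the highest-C1q group (3.35%). Plac8 was at 3298, 1521 and 576 CPM from the lowest to the highest C1q group, 5.73-fold higher at the low end (4.99 to 6.60). S100a6 was at 900, 325 and 79.2 CPM, Ifitm6 at 344, 77.6 and 14.0, Napsa at 428, 200 and 34.96, and Hp at 319, 125 and 37.3 CPM. Lgals3, galectin-3, was at 1074, 538 and 210 CPM. Over the 81 cells Plac8 had a Spearman correlation of -0.59 with C1q, between shares of the same UMI totals.

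The highest-C1q group carried more of the macrophage genes. Maf was at 144, 335 and 513 CPM, 3.55-fold higher at the high end (2.62 to 4.90), Ms4a7 at 66.6, 195 and 469 CPM, and Dab2, an endocytic adaptor, at 139, 295 and 618 CPM. Fcrls, an Fc receptor-like gene of macrophages, was at 94.4, 193 and 531 CPM, and Mrc1 at 77.7, 150 and 252 CPM, the last still far below the 1104 CPM of Lyve1-positive cells. Of 11 tissue macrophage genes measured, 6 were higher in that group and none in the lowest, and of 6 classical monocyte genes 4 were higher in the lowest. Ccr2 was at 869, 776 and 315 CPM. Lair1 stood at 86.1, 82.6 and 112 CPM, with a ratio of 0.769 (0.473 to 1.23) between the lowest and highest group. Fcgr4, at 336, 308 and 310 CPM, was fixed from below by the rule, and nothing is read from it. The median depth was 12589, 15431 and 15532 UMIs in the groups, and its part in these differences was not tested.

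**Figure D4:**
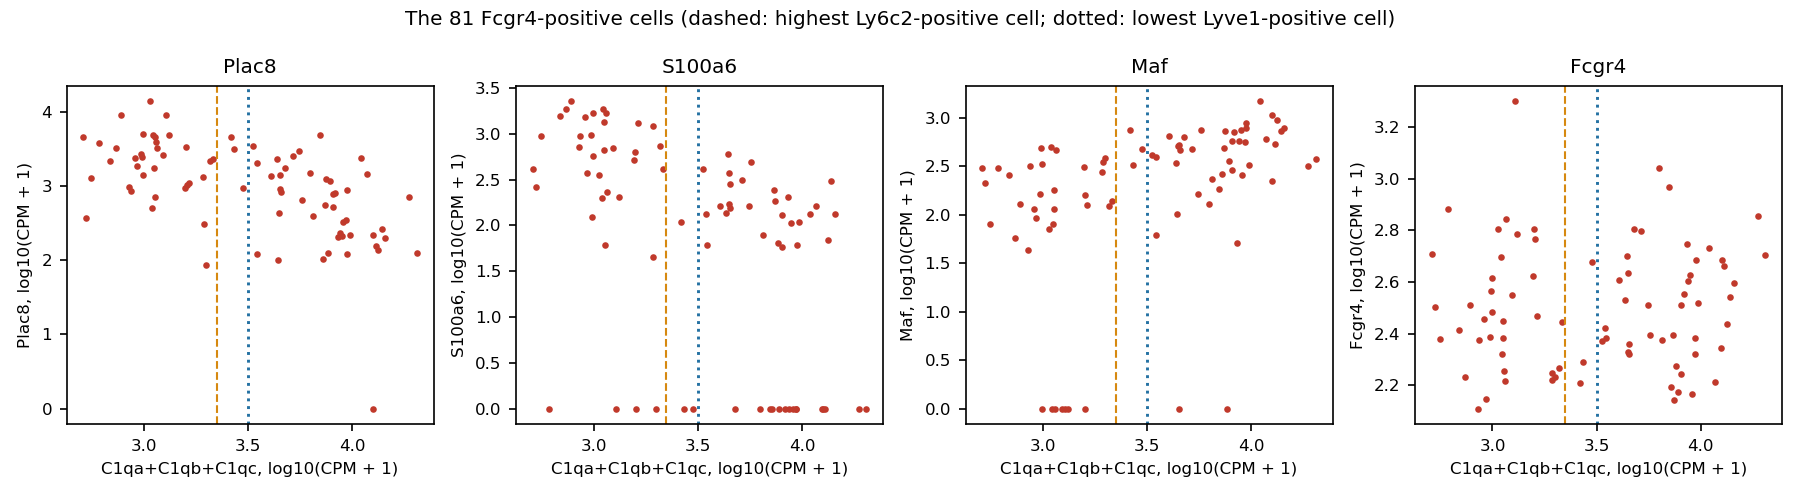
Plac8, S100a6, Maf and Fcgr4 against the 3 C1q genes together in each of the 81 Fcgr4-positive cells, both axes as log10(CPM + 1). Dashed and dotted lines mark the highest Ly6c2-positive cell (2229 CPM) and the lowest Lyve1-positive cell (3157 CPM); Plac8 and S100a6 are higher to the left and Maf to the right, while Fcgr4, the rule gene, is bounded below by the choice of cells.

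Class II genes, which present antigen to helper T cells, were among the largest ratios, and the UMIs of H2-Aa, H2-Ab1 and H2-Eb1 lay mostly in 3 cells. H2-Aa, H2-Ab1 and H2-Eb1 summed to 518 UMIs, of which 3 cells held 243, 128 and 115 (93.8%), while 61 cells had none. All 6 class II genes measured were higher than in Lyve1-positive cells, and 2 were without the 4 cells of 5 or more such UMIs, a set left out after seeing the data. Without those 4 cells the count went from 6 to 0 against C1q-high cells and from 4 to 0 against Ly6c2-positive cells. H2-DMa, which loads peptides, was spread more evenly, at 217 against 29.3 CPM in 69 cells, with 4.26% of its UMIs in the highest cell. Cd74, the invariant chain, was at 951 against 63.6 CPM, 14.96-fold higher, and 6.60-fold without the 5 highest cells of each set. After thinning, 57.5% of Fcgr4-positive, 23.7% of Lyve1-positive, 44.4% of C1q-high and 41.4% of Ly6c2-positive cells had a Cd74 UMI. Of 12 dendritic cell genes, the first of the 3 cells had 6 UMIs of Batf3 and 1 of Mgl2, the second had 8 of Clec10a and 5 of Mgl2, and the third had 1 of Batf3. The other 9 genes, Flt3 and Zbtb46 among them, gave no UMI in these cells. The third of them was the cell with 475 Ccl4 UMIs, and it also held 116 of Ccl3 and 88 of Bcl2a1b. C1q stood at 850, 4404 and 8568 CPM in the 3 cells.

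**Figure D5:**
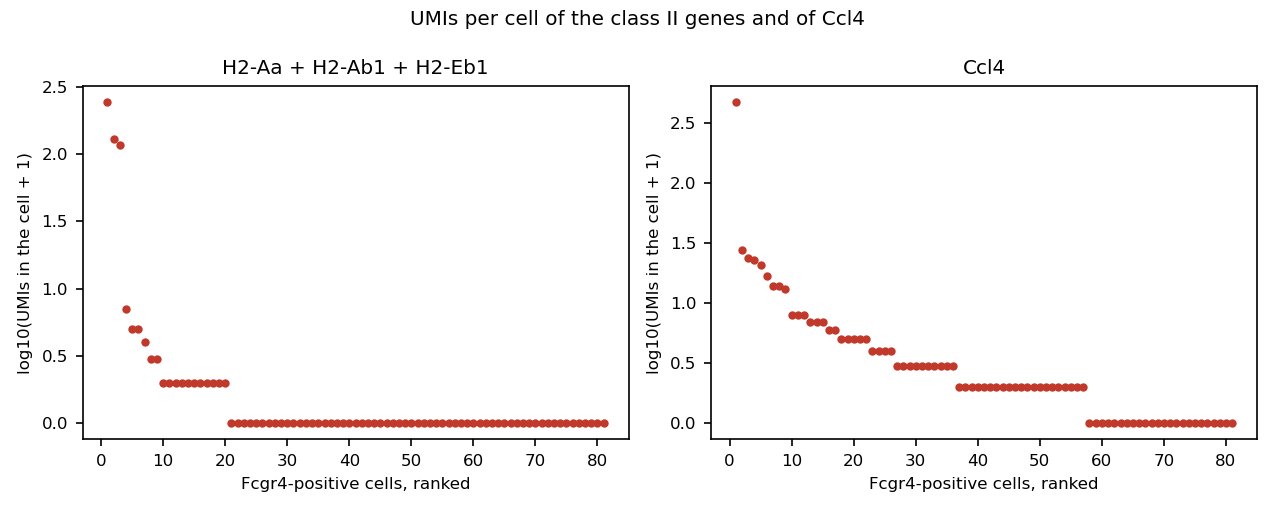
UMIs in each Fcgr4-positive cell, ranked, for H2-Aa, H2-Ab1 and H2-Eb1 together and for Ccl4, as log10(UMIs + 1). A few cells stand above the rest: 243, 128 and 115 class II UMIs, and 475 Ccl4 UMIs in 1 cell with 27 in the next.

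Chemokine genes moved in both directions. Against Lyve1-positive cells 4 of 15 were higher (Ccl3, Ccl4, Ccl6, Ccl9) and 4 lower (Ccl7, Ccl12, Pf4, Ppbp). Ccl9, a CC chemokine of myeloid cells, was at 749 against 294 CPM in 78 cells, and Ccl6 at 412 against 163 CPM. Ccl12, a mouse ligand of CCR2, was at 133 against 499 CPM. Of 12 receptor genes for growth factors and cytokines of the lineage, 5 were higher than in Lyve1-positive cells (Csf2ra, Csf2rb, Csf3r, Il10ra, Ifngr1) and none was lower by 2-fold. Against C1q-high cells 1 of 12 was higher (Csf3r) and none lower. Csf2ra, a chain of the GM-CSF receptor, was at 204 against 66.2 CPM.

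Ogt, the floxed gene, was not deleted in the control library and stood at 67.3 CPM in Fcgr4-positive cells against 67.8 in Lyve1-positive cells (ratio 0.993, 0.753 to 1.30), in 53 of the 81 cells. Transcription factors of the lineage were present in all, with Spi1 at 580 CPM and Cebpb at 828 CPM in 81 of 81 cells. Cebpb, which supports monocyte survival, was 2.07-fold higher than in Lyve1-positive cells (1.90 to 2.26) and 0.561 times its level in Ly6c2-positive cells. Ctss, the lysosomal protease cathepsin S, was at 2311 against 752 and 1505 CPM in those sets.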

How the data were processed

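The deposited values were UMI counts per gene and cell, whole numbers for 27998 gene identifiers, in 1 table per genotype. Per the submitters' processing notes, Cell Ranger 2.0.0, Seurat 2.0, DESeq2 1.14.1 and mm10 were used. The filter that turned barcodes into cells is not given in the sources used here, and the runs of a library could not be separated. Symbols (27645 matched) came from GENCODE M21. The listed genes Cebpd and Lilrb4a had no match.

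The members and all gene lists were chosen with earlier results of these data known. Lyve1-positive cells had 4 or more Lyve1 UMIs, Ly6c2-positive cells 3 or more of Ly6c2, and C1q-high cells 20 or more of C1qa, C1qb and C1qc. Named genes were the given markers, the 15 highest genes, the 12 (C1q-high cells: 8) largest log2 ratios in each direction among genes with 50 UMIs in 10 cells, and up to 4 members of each of 39 lists. Further list members and genes of the groups ranked by C1q were chosen after their values were seen. Scrublet (scanpy 1.11.5) marked 6 of 941 barcodes as doublets, 0 of them members, and none was removed. TMM used edgeR 4.0.16. On data simulated with counting error only, against Lyve1-positive cells, with 9138 genes in the step, 0% of 8742 genes left alone, 18% of 50 genes raised 2-fold, 100% of 50 raised 4-fold, 12% of 50 lowered 2-fold and 69.4% of 49 lowered 4-fold were called. Alternatives covered the rule, filters, scaling, added CPM, dividing, deep and sex-typed cells. A few list members are counted with their lists but are not reported here by name.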

Additional observations from a re-analysis of the deposited data

How the results depend on the processing

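Of 1000 recomputed gene ratios (71 ratios under the alternatives), 982 kept their direction and 18 did not. Most of the 71 were picked for their size in these same cells, so a kept direction was likely from the start. Many kept it but left the 95% interval of the main ratio. This held for 40 ratios without the 5 highest cells of each set, where 24 stayed inside. It held for 36 without dividing cells (32 inside), 40 with Xist only (20 inside) and 1 with TMM scaling (70 inside). With at least 2 or at least 5 Fcgr4 UMIs, the control held 133 or 30 cells in place of 81, and the knockout held 5 at the limit of 2. TMM scaling raised the log2 ratio to Lyve1-positive cells by 0.11 and reversed no named ratio. Counts of genes past the 2-fold limit moved most with the CPM added. With 1 CPM they were 473 higher and 838 lower against Lyve1-positive, 187 and 629 against C1q-high and 350 and 442 against Ly6c2-positive cells. With 50 CPM they were 100 and 55, 15 and 16, and 40 and 65, and list members past the limit against Lyve1-positive cells went from 115 to 56. Asking for 100 UMIs gave 179 higher against Lyve1-positive cells and 77 higher and 118 lower against Ly6c2-positive cells, from fewer genes measured. Without dividing cells, 398 were lower than in Lyve1-positive cells, 95 higher and 144 lower than in C1q-high cells, and 134 lower than in Ly6c2-positive cells. Against C1q-high cells, the mean of the cells' own CPM gave 97 higher, leaving out the 10% deepest cells gave 98 higher, and at least 5 Fcgr4 UMIs gave 134 lower. The 12 cells with Xist and no Y-linked UMI gave 173 higher against Lyve1-positive cells and 115 higher and 261 lower against C1q-high cells, and 16.7% of them had C1q no higher than the highest Ly6c2-positive cell, against 43.2% of all.

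All 18 changes of direction came under settings that left cells out. Without the 4 class II cells, chosen after seeing the data, H2-Ab1 stood at 0.974 times Lyve1-positive and 0.395 times C1q-high cells, and H2-Aa at 0.575 times C1q-high cells. Ccl4 stood at 0.935 times C1q-high cells without the 5 highest cells of each set. In the cells with Xist only, Ccl4 stood at 0.894 times C1q-high and 0.714 times Ly6c2-positive cells, and Lair1 at 0.940 times C1q-high cells. The remaining changes were all against C1q-high cells. Hba-a1 reached 1.01 and Hba-a2 1.13 without the 10% deepest cells, Hba-a2 1.06 without marked doublets, and Hba-a2 1.71 and Hbb-bt 1.07 in cells with Y-linked UMIs only. Ins1 and Ins2 reached 1.42 and 1.03 without dividing cells and 1.24 and 1.10 with Xist only, and Ins1 1.15 at 5% mt- UMIs and 1.02 without the 5 highest cells. The cause was not tested. No paired analysis was possible because each genotype is 1 library, whose repeat runs the tables do not separate, and no result comes from a test. For the same reason no replicate could be left out.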
